A study of Mus musculus with 6 samples.

Results

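DNA methylation peaks were examined at 9 genes that mark epithelial cells of the kidney, 3 of podocytes (Nphs1, Podxl and Ptpro) and 6 of the tubule (Lrp2, Cubn, Slc34a1, Umod, Slc12a1 and Slc12a3), of 22367 protein-coding genes of the mouse annotation (GENCODE vM1, mm9). The genes were chosen by name, as genes of cells other than the mesangium. No methylation value served as a criterion, but earlier results of these data were known when the choice was made. They had been described as silent in mesangial cells. This was not checked here, because the peak lists hold no expression values and the RNA sequencing of the study was not used. A peak was assigned to a gene when its summit, the position of its highest read number, lay in the gene or within 5 kb on either side.

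The samples were primary mesangial cells of the mouse, contractile cells that hold the glomerular capillary tuft together, at passages 3 to 6. Both groups shared a medium rich in glucose (25.5 mM) and foetal bovine serum (20%). There were 3 untreated control samples and 3 treated samples, kept for 72 h with 10 ng/ml TGF-β1, a cytokine that drives fibrosis in the kidney. The labels name no strain, genotype, sex or age, and do not say whether replicates came from separate cultures or animals, so the spread between samples may be technical. Methylated DNA was enriched with an antibody and sequenced (MeDIP-seq), and peaks were called in each sample separately from 9407103 to 11494356 reads in control and 12634300 to 13291419 reads in treated samples. Since the shallowest treated sample had more reads than the deepest control sample, treatment and depth cannot be told apart for a number of peaks or an unscaled pileup, the number of extended reads over a summit. The lists held 81473 to 105520 peaks, and the shortest was that of control replicate 1. Enrichment by the antibody depends on the density of methylated CpG sites, a peak was called without an input library, and a place without a peak is not thereby unmethylated. Of the regions described here, 1 in intron 1 of Ptpro, called in TGF-β1 replicate 3 only, holds 0 CpG sites.

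Podocytes are the epithelial cells that wrap the glomerular capillaries and close the filter with a slit diaphragm, and the tubule cells downstream recover protein, phosphate and salt from the filtrate. Their specialised genes are used in a few cell types, and mesangial cells, which come from the stromal lineage, are not known for them. In mammals most CpG sites of gene bodies and of CpG-poor promoters are methylated in most tissues, while CpG-rich promoters (CpG islands) are usually unmethylated whether or not the gene is in use.

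The starts of 3 of the genes are shown first, because enrichment in these bases depends on the methylated CpG sites they hold. Each line gives the 300 bases directly before the annotated start, written 5′ to 3′ along the gene's strand in mm9, with CpG sites in capitals. The starts of Podxl (chr6:31513982-31514281, minus strand) and Lrp2 (chr2:69424123-69424422, minus strand) hold 20 CpG sites each, and that of Umod (chr7:126622770-126623069, minus strand) holds 0.
Podxl start: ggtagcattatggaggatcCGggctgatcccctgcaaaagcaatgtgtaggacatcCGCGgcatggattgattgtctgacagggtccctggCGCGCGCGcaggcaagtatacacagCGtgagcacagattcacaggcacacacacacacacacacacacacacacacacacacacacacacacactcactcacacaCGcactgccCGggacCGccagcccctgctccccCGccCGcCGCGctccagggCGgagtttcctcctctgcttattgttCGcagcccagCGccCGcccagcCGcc
Lrp2 start: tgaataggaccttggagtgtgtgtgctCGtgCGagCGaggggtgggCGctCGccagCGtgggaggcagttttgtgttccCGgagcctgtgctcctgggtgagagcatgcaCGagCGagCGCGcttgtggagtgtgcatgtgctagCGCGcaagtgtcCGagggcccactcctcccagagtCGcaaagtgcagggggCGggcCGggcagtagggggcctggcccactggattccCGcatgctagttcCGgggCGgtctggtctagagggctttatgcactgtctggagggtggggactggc
Umod start: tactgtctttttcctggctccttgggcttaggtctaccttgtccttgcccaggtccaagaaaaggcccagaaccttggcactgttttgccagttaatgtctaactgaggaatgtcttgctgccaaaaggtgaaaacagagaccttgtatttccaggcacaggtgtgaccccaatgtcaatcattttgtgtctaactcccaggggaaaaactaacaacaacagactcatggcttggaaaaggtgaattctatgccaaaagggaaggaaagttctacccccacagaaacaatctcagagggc

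The next 3 sequences are 300 bases around the summits of the regions on which the comparisons below turn, in the same notation. They are the upstream region of Podxl found in all 6 samples (chr6:31515267-31515566, minus strand, 14 CpG sites), a region called in every treated sample and no control sample, in intron 1 of Ptpro (chr6:137260537-137260836, plus strand, 11 CpG sites), and the coding region of Ptpro exon 5 (chr6:137328687-137328986, plus strand, 15 CpG sites), shown as an example of a shared peak inside coding sequence.
Podxl upstream region: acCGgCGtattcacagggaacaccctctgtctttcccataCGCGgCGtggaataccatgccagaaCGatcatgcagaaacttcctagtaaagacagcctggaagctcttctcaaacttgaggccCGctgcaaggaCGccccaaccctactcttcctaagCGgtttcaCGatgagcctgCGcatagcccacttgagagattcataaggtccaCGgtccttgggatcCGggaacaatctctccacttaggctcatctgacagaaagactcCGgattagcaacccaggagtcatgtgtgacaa
Ptpro intron 1 region: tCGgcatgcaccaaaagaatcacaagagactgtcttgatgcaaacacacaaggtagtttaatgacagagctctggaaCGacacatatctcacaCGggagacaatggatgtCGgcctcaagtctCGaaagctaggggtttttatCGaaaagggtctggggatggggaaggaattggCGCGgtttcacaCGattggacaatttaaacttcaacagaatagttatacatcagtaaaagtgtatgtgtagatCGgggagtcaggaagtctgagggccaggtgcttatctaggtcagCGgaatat
Ptpro exon 5 region: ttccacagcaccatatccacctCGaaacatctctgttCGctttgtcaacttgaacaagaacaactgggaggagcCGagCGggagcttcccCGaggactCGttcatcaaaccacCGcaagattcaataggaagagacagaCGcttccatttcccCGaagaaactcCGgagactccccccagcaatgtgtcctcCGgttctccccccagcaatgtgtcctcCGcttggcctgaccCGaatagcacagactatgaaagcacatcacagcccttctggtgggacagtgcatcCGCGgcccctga

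At the starts, 1 of the 9 genes carried methylation peaks. Podxl had promoter peaks in all 6 samples, where the promoter is the 2 kb upstream and 500 bp downstream of the annotated start, and none of the other 8 genes had a promoter peak in any sample. The count fell to 0 genes with a promoter region in all 6 samples when the promoter was 1 kb either side of the start, and also when only peaks enriched at least 5-fold were used. Over all protein-coding genes, 19.2% had a promoter peak in at least 1 sample and 4.89% had a promoter region found in all 6 samples, so 1 in 9 is too few genes to set against either share. In the 300 bases directly before the start, no region of any sample overlapped at any of the 9 genes. This window holds a median of 9 CpG sites over all protein-coding genes. It holds 20 at Podxl, 20 at Lrp2, 4 at Ptpro, 3 at Nphs1, 3 at Slc12a3, 2 at Cubn, 1 at Slc34a1, 0 at Slc12a1 and 0 at Umod.

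The 9 genes were divided by CpG content at the start into a richer and a poorer set, at the median of all protein-coding genes. Ptpro lay near this median, with 54.8% of genes below it. In the 300 bases before its start it had fewer CpG sites (4) than the median of 9. In the 1 kb centred on the start, the ratio of observed to expected CpG sites was 0.840 at Lrp2, 0.822 at Podxl and 0.605 at Ptpro, all above the median of 0.549 over all protein-coding genes. The ratio was 0.397 at Cubn, 0.316 at Slc12a3, 0.263 at Slc12a1, 0.158 at Nphs1, 0.122 at Slc34a1 and 0.0215 at Umod. Umod, with 1 CpG site in this 1 kb, had a lower ratio than nearly every other gene, since 0.308% of protein-coding genes lay below it. No promoter peak was called at the 6 genes below the median, nor at Lrp2 and Ptpro, which held 84 and 49 sites in the 1 kb. The promoter reaches 2 kb upstream, so the 1 kb covers only part of it, and sites in the whole promoter were not counted. The part of CpG content in the absence of promoter peaks was not tested.

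**Figure D1:**
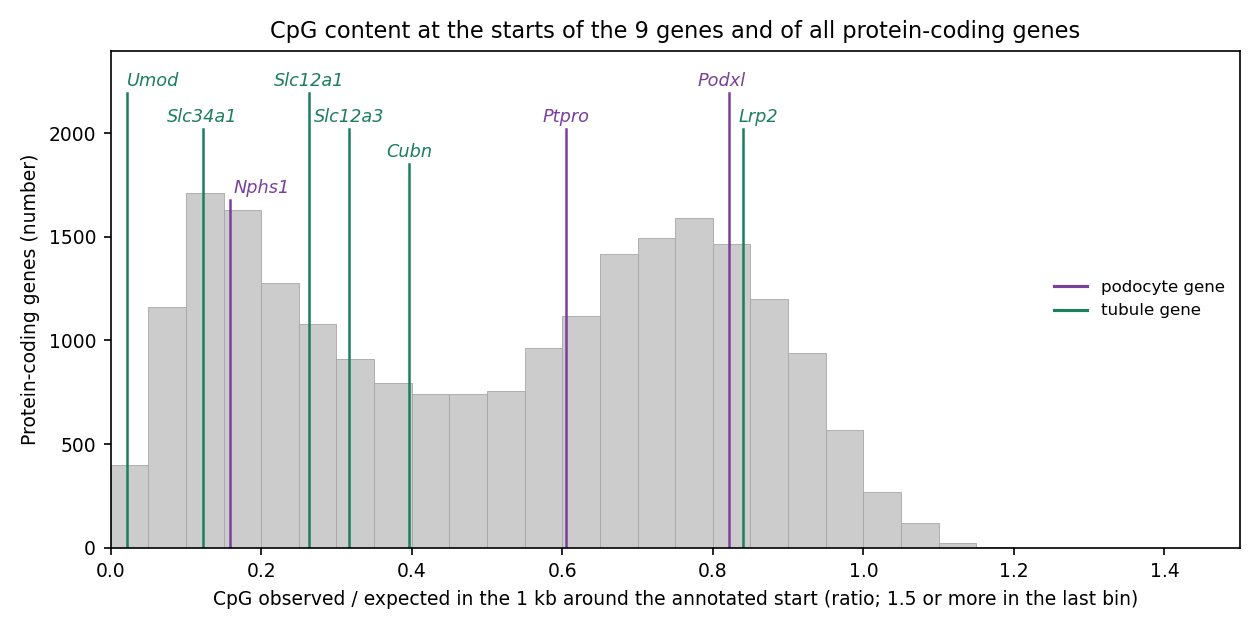
Histogram of the ratio of observed to expected CpG sites in the 1 kb around the annotated start for 22367 protein-coding genes (grey bars, number of genes per bin of 0.05), with the 9 genes as labelled vertical lines (purple, podocyte; green, tubule). Podxl and Lrp2 lie in the upper peak of the histogram at 0.822 and 0.840, and Umod lies at its lower end at 0.0215.

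Podxl encodes podocalyxin, the charged surface mucin of podocyte foot processes. Its upstream region (chr6:31514880-31515807, 928 bp, 32 CpG sites) has its summit 1407 bp before the start and lies outside the CpG-dense sequence shown for the start itself. The pileup was 24, 20 and 25 reads in control replicates 1, 2 and 3 and 34, 31 and 39 reads in the corresponding treated samples. The lowest treated sample was therefore above the highest control sample, as it was for 14.6% of the 41744 regions found in all 6 samples of the genome. Divided by depth, the pileup was 2.33, 2.13 and 2.18 per 1000000 reads in control and 2.67, 2.45 and 2.93 in treated samples. On this scale the groups again did not overlap, and 1.97% of the genome's shared regions had every treated sample above every control sample. In the limma fit over all shared regions, centred on each sample's median, the log2 fold change was 0.37 with a standard error of 0.198, and it did not pass the test (unadjusted p = 0.0715, adjusted p = 0.999). A second promoter region of Podxl, 581 bp before the start, was called only in TGF-β1 replicate 2, with a pileup of 24.

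The body of Podxl added 7 regions, of which 6 lay in intron 1 and 1 in intron 4, and 1 region lay downstream of the gene. Intron regions were called in 2 to 5 of the 6 samples, while the downstream region was called in all 6. Its pileup was 23, 22 and 17 reads in control and 26, 23 and 27 reads in treated samples, and the groups met at 23 reads and overlapped per 1000000 reads. In number, Podxl had 5, 3 and 5 peaks in control and 7, 7 and 7 peaks in treated samples. The groups did not overlap, with a difference of 2.67 peaks between the means of 4.33 ± 1.15 and 7 ± 0 (SD, n = 3; exact two-sided permutation test, p = 0.1, which is the lowest value for 3 samples against 3). The difference was 1 peak, and the groups overlapped, when the same number of peaks (81473, those with the highest -log10 q) was taken from each sample.

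Nphs1 encodes nephrin, the adhesion molecule that bridges the slit diaphragm. It lies at chr7:31243334-31272242, has 181 CpG sites per 10 kb of gene and flanks, the most of the 9 genes, and had few peaks. There were 0, 0 and 1 peaks in control and 2, 1 and 1 peaks in treated samples. The 3 regions lay in intron 14, in intron 28 and downstream, and none was found in more than 3 samples. The intron 28 region was called in control replicate 3 and TGF-β1 replicates 1 and 2, with pileups of 15, 18 and 29 reads. It lies in sequence of which 11.8% of the 49-base windows (the length of the reads) occur once in the genome, while only uniquely placed reads were kept by the authors.

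Ptpro encodes GLEPP1, a receptor tyrosine phosphatase of the podocyte surface. It spans 212 kb (chr6:137200820-137413150), with 14 regions, all in the gene body, of which 3 were found in all 6 samples. There were 5, 8 and 6 peaks in control and 8, 8 and 7 peaks in treated samples, which overlapped (difference 1.33 peaks, exact two-sided permutation test, p = 0.4). It was 0.667 peaks without control replicate 1 and 2.17 peaks without control replicate 2, where the groups did not overlap. The sign of this difference depended on the scale. It was -0.270 in peaks scaled to the mean depth, -0.667 peaks among peaks enriched at least 5-fold, and -2.33 peaks with the same number of peaks taken from each sample. The shared region of highest pileup was the coding region of exon 5 shown above, with 23, 30 and 32 reads in control and 28, 29 and 28 reads in treated samples. Here the spread among control samples covered all 3 TGF-β1-treated values.

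The intron 1 region of Ptpro (chr6:137260526-137260854, 329 bp, 12 CpG sites) lay 59.9 kb from the start and was called in the treated samples only. Its pileup was 14, 18 and 22 reads in the 3 treated replicates, where the lowest pileup called anywhere was 9, 9 and 10 reads. No peak was listed in a control sample, where the pileup is unknown and the lowest called pileup was 8 reads. In this region 99.3% of the 49-base windows occur once in the genome. The region was not called in all 3 treated samples when equal numbers of peaks were taken.

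Lrp2 and Cubn encode megalin and cubilin, the large endocytic receptors with which the proximal tubule recovers filtered protein. Lrp2 (chr2:69262397-69424122) had the most regions of the 9 genes, 24, all in the gene body, and 4 of them were found in all 6 samples. Its peak number was 5, 10 and 16 in control and 15, 12 and 16 in treated samples. The groups overlapped, and the control SD of 5.51 peaks was larger than the difference of 4 peaks (exact two-sided permutation test, p = 0.4). Control replicate 1, the shortest list of the series, gave the lowest value, and without it the difference was 1.33 peaks. Without control replicate 3 it was 6.83 peaks and the groups did not overlap. No region lay nearer to the start than 2.54 kb, although the start is CpG-rich.

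The nearest region to the start of Lrp2, in intron 1 (chr2:69421396-69421806, 5 CpG sites), had the smallest limma p of the shared regions at the 9 genes. Its pileup was 25, 23 and 30 reads in control and 16, 21 and 32 reads in treated samples. The groups overlapped in reads, and per 1000000 reads every treated sample (1.26, 1.66 and 2.41) was below every control sample (2.42, 2.45 and 2.61). The log2 fold change was -0.45 with a standard error of 0.225 (limma, unadjusted p = 0.0545, adjusted p = 0.999), and it was -0.25 without TGF-β1 replicate 1 and -0.70 without TGF-β1 replicate 3 (limma, unadjusted p = 0.00745, adjusted p = 0.999). The largest pileup at Lrp2 was in intron 35 (chr2:69329558-69330020), with 36, 19 and 37 reads in control and 22, 41 and 29 reads in treated samples. Values in both groups ranged about as widely, with control replicate 2 and TGF-β1 replicate 1 low.

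Cubn (chr2:13197965-13413551) is the longest of the 9 genes at 216 kb and the poorest in CpG sites, with 67.5 per 10 kb. It had 15 regions, 4 of them in all 6 samples, and all 4 had their summits in coding exons (exons 14, 24, 46 and 57 of the transcript used). There were 7, 8 and 8 peaks in control and 12, 10 and 7 peaks in treated samples, which overlapped (difference 2 peaks, exact two-sided permutation test, p = 0.4). The difference was 0.833 peaks without TGF-β1 replicate 1, 3.33 peaks without TGF-β1 replicate 3, where the groups did not overlap, and 0 with equal numbers of peaks. The region of exon 24 had the highest pileup, 27, 18 and 39 reads in control and 24, 37 and 39 reads in treated samples. Control replicate 2 and TGF-β1 replicate 1 were again the low samples of their groups. The region of exon 57 also lies in the non-coding gene Gm13270, which overlaps Cubn.

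A further region, in an intron of Cubn, was called in every treated sample and no control sample. Its pileup was 15, 13 and 22 reads in the 3 treated replicates, and 77.5% of its 49-base windows occur once in the genome. With the Ptpro region above, this made 2 of 80 regions at the 9 genes called in all samples of TGF-β1 and none of control, and 0 of 80 the other way round. Over all 170444 regions of the genome, the shares were 0.948% and 0.233%. With equal numbers of peaks per sample, neither of the 2 regions was left, and 1 region of Ptpro was called in all control samples and no treated sample. Among peaks enriched at least 5-fold there were 3 such regions, 2 on the TGF-β1 side (Podxl and Ptpro) and 1 on the control side (Ptpro). Without TGF-β1 replicate 1 there were 4, at Cubn, Lrp2, Podxl and Ptpro, all on the TGF-β1 side. Leaving out a sample loosens the condition for every region. The genome shares above are for all peaks of all 6 samples, so the counts of these alternatives cannot be set against them.

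Slc34a1 encodes the sodium phosphate cotransporter of the proximal tubule brush border (chr13:55501009-55516056). It had a single region, in intron 9 and overlapping the neighbouring gene Pfn3, called in control replicate 3 with 12 reads and in TGF-β1 replicate 2 with 16 reads. The other 4 samples had no peak in the gene or its flanks. Its 146 CpG sites per 10 kb are more than the median of 116 over all protein-coding genes.

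Umod encodes uromodulin, the most abundant protein of normal urine, made in the thick ascending limb. It was the only one of the 9 genes with 0 peaks in all 6 samples, as were 19.8% of protein-coding genes. The gene is short (16.4 kb, chr7:126606380-126622769) and its window is CpG-poor, with 74.3 sites per 10 kb. Of its 49-base windows 95.9% occur once in the genome, close to the 96.8% of Ptpro, so most of it could be reached by unique reads. In a list of called peaks, its methylation level was not measurable at this depth.

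Slc12a1 encodes NKCC2, the furosemide-sensitive salt cotransporter of the thick ascending limb (chr2:124978241-125055738). It had 4, 4 and 4 peaks in control and 5, 5 and 7 peaks in treated samples, so every treated sample was higher. The difference was 1.67 peaks (exact two-sided permutation test, p = 0.1, again the lowest value). It was 1 peak without TGF-β1 replicate 3 and 0 when equal numbers of peaks were taken per sample, and the groups overlapped per 1000000 reads and at a -log10 q of at least 5. Of its 8 regions 3 were found in all 6 samples, in introns 12, 20 and 24. The intron 12 region (chr2:125011734-125012413, 26 CpG sites) had the highest pileup, 18, 23 and 22 reads in control and 26, 22 and 28 reads in treated samples. The region nearest to the start, 1.66 kb inside the gene with its summit in coding exon 2 and with 27 CpG sites, was called in 5 samples and not in control replicate 1.

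Slc12a3 encodes NCC, the thiazide-sensitive salt cotransporter of the distal convoluted tubule (chr8:96853092-96890113). It had 2, 3 and 4 peaks in control and 3, 2 and 2 peaks in treated samples, the only one of the 9 genes with a lower mean after TGF-β1 (difference -0.667 peaks, exact two-sided permutation test, p = 0.7). The difference was -0.167 peaks without control replicate 3 and -1.17 peaks without control replicate 1. Its single shared region, in intron 12 (chr8:96865528-96866001), had 30, 28 and 32 reads in control and 33, 33 and 42 reads in treated samples. This was the highest mean pileup of the 17 shared regions. In reads the groups did not overlap, and per 1000000 reads they did. Of the 49-base windows of this gene and its flanks, 82.3% occur once in the genome, the lowest share of the 9 genes.

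Taken over the genes, 2 of 9 (Podxl and Slc12a1) had every treated sample above every control sample in peak number, and 0 of 9 had every one below. Of 17949 protein-coding genes with a peak, 3.91% had every treated sample above and 0.345% every one below, and of the 6425 genes with a mean of at least 3 peaks, 7.16% and 0.28%. Umod is not among the 17949 genes, and Umod, Nphs1, Slc34a1 and Slc12a3 are not among the 6425, so the count of 9 has another base than these shares. No exact p of the 9 genes was below 0.1, and adjusted over all protein-coding genes with a peak it was 1 for each of the 8 genes that had one. Without control replicate 3, the count was 4, with Nphs1 and Lrp2 added, and without control replicate 2 or TGF-β1 replicate 3 it was 3. Leaving out a sample loosens the condition for every gene. The shares over all genes given here are for all 6 samples, so these counts cannot be set against them.

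**Figure D2:**
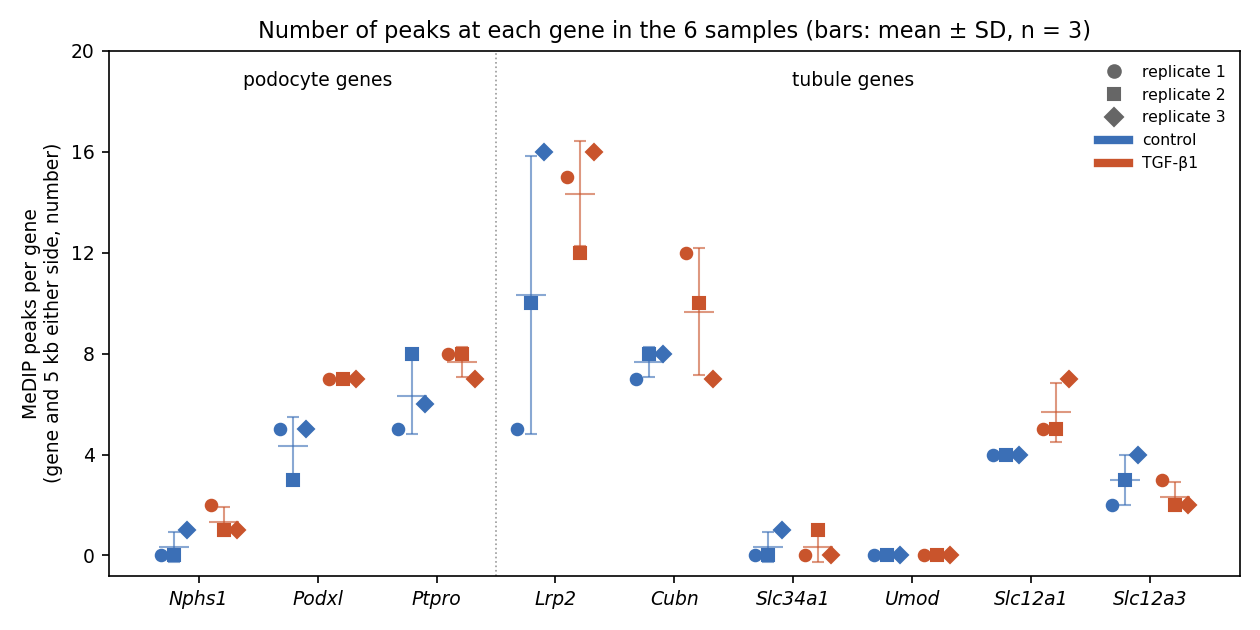
Number of peaks per gene (vertical axis, gene and 5 kb either side) for the 9 genes, with 1 point per sample (blue, control; orange, TGF-β1; circle, square and diamond for replicates 1, 2 and 3) and bars for mean ± SD of 3 samples. The groups do not overlap at Podxl and Slc12a1, Lrp2 ranges from 5 to 16 peaks in control, and Umod is at 0 in every sample.

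Summed over the 9 genes, the control samples had 28, 36 and 45 peaks and the treated samples 52, 46 and 47. Per 10000 peaks of the same sample, these were 3.44, 3.99 and 4.48 in control and 5.12, 4.58 and 4.45 in treated samples, and the groups overlapped. The 3 podocyte genes had 10, 11 and 12 peaks in control and 17, 16 and 15 in treated samples, which did not overlap, also not per 10000 peaks (1.23, 1.22 and 1.19 in control, 1.67, 1.59 and 1.42 in treated samples). Sums over other sets of 3 genes were not made, so this separation has no genome share to be set against. Among single genes with a peak, 3.91% had every treated sample above and 0.345% every one below. Per 1000000 reads the podocyte genes had 0.969, 1.17 and 1.04 peaks in control and 1.33, 1.27 and 1.13 in treated samples, so control replicate 2 was above TGF-β1 replicate 3. Of the difference of 5 peaks between the group means of the podocyte sum, Podxl gave 2.67, Ptpro 1.33 and Nphs1 1, and the groups overlapped at Ptpro and Nphs1. With equal numbers of peaks taken from each sample, the difference between the group means of the podocyte sum went from 5 peaks to -0.667 peaks. The 6 tubule genes had 18, 25 and 33 peaks in control and 35, 30 and 32 in treated samples, which overlapped.

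Scaled to the length of the gene and its flanks, the genes were ordered by their mean over both groups. This mean over the 6 samples was 1.04 ± 0.300 peaks per 10 kb at Podxl, 0.718 ± 0.252 at Lrp2, 0.567 ± 0.174 at Slc12a3 and 0.552 ± 0.134 at Slc12a1 (SD, n = 6). It was 0.384 ± 0.0872 at Cubn, 0.315 ± 0.0569 at Ptpro, 0.214 ± 0.194 at Nphs1, 0.133 ± 0.206 at Slc34a1 and 0 at Umod. Neighbours in this order differed by less than the larger of their SDs, except Podxl from Lrp2 and Slc12a1 from Cubn, which differed by more than either SD. The order differed by group, since Slc12a3 (0.638) was above Lrp2 (0.602) in control, while Lrp2 (0.835) and Slc12a1 (0.648) were above Slc12a3 (0.496) in treated samples. The median over all protein-coding genes was 0.517 peaks per 10 kb. The order did not follow the CpG sites of the windows, in which Nphs1 was the richest gene and Cubn the poorest.

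Of the 80 regions at the 9 genes, 17 (21.3%) were found in all 6 samples and 23 (28.8%) in a single sample, against 24.5% and 27.3% of the 170444 regions of the genome. The shared ones were divided among Lrp2 (4), Cubn (4), Ptpro (3), Slc12a1 (3), Podxl (2) and Slc12a3 (1), and Nphs1, Slc34a1 and Umod had none. Without control replicate 1, 26 regions were found in all remaining samples, and 50093 in place of 41744 over the genome. The shared regions had a median length of 463 bp and 2.33 CpG sites per 100 bp, and those found in a single sample 298 bp and 2.35 sites. Over the genome, shared regions had more sites, 2.61 per 100 bp, than regions of a single sample, 2.13.

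**Figure D3:**
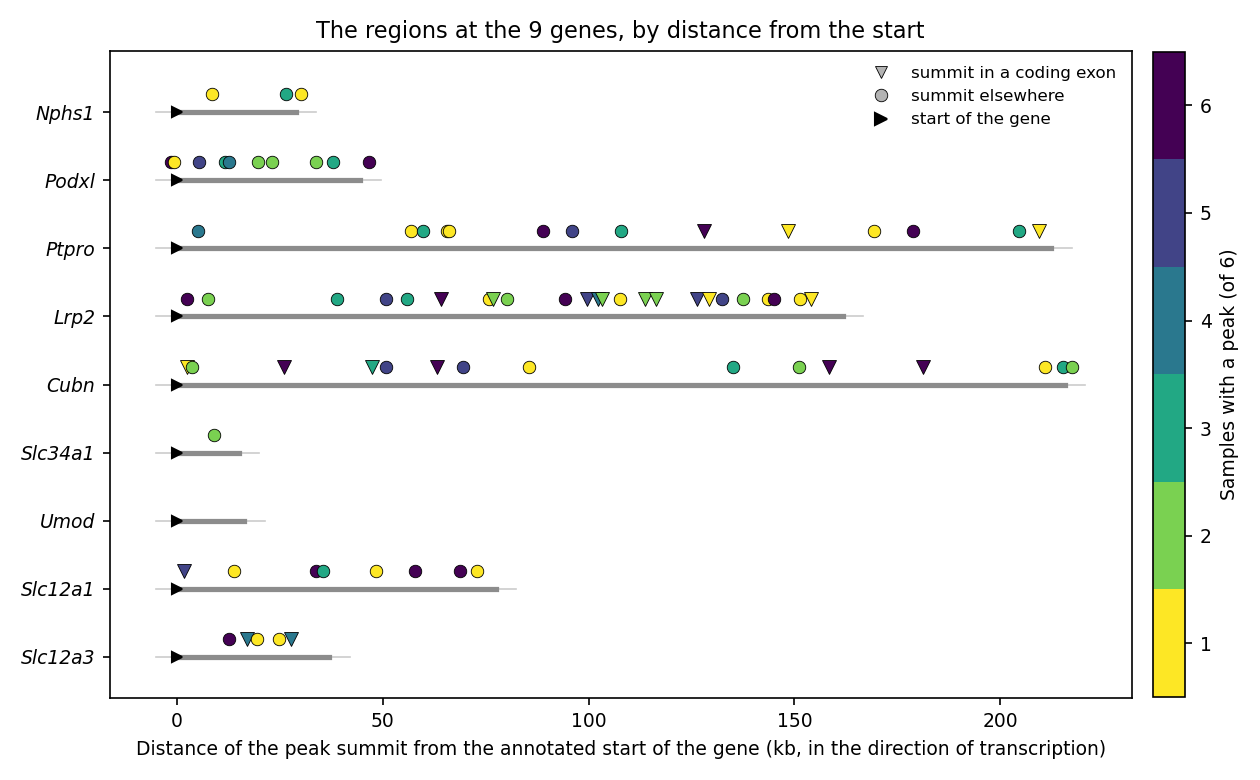
The 80 regions at the 9 genes, each drawn at the distance of its summit from the annotated start of the gene (horizontal axis, kb in the direction of transcription), coloured by the number of samples with a peak there (1 to 6). Triangles are summits in coding exons, circles are summits elsewhere, grey bars are the genes and thin lines the 5 kb flanks. Shared regions near a start are seen at Podxl and, 2.54 kb inside the gene, at Lrp2, and the 4 shared regions of Cubn are all triangles.

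Most regions lay in introns. Of the 80, 52 had their summit in an intron, 22 in a coding exon, 1 in an untranslated exon, 2 upstream and 3 downstream of the gene. Coding sequence made up 5.5% of the bodies of the 9 genes and held 22 of the 75 regions of the gene bodies (29.3%) and 6 of the 15 shared ones (40%). Over all protein-coding genes, coding sequence made up 3.59% of gene bodies and held 14.9% of regions and 15.7% of shared regions. Coding sequence of the 9 genes was richer in CpG sites than the rest of their bodies, with 2.63 against 0.945 sites per 100 bp, and held 13.9% of the CpG sites of the bodies, against 10.5% over all genes. Exons of Lrp2 and Cubn, both long receptor genes with many exons, gave 10 and 6 of the 22 coding regions.

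Divided by depth, the pileup at the 17 shared regions differed between the groups by less than the spread of the samples. The median pileup over the regions was 23, 19 and 22 reads in control and 26, 23 and 29 reads in treated samples (21.3 ± 2.08 and 26.0 ± 3.00, SD, n = 3). Per 1000000 reads it was 2.05 ± 0.160 in control and 2.01 ± 0.182 in treated samples, while over all 41744 shared regions of the genome it was 2.34 ± 0.108 and 2.20 ± 0.0600. In reads, 4 of the 17 regions had every treated sample above every control sample (Podxl upstream, Lrp2 exon 14, Cubn exon 46 and Slc12a3 intron 12) and 0 had every one below, against 14.6% and 0.309% over the genome. Per 1000000 reads the upstream region of Podxl was the only one above, and 3 regions were below (Ptpro intron 19, Lrp2 intron 1 and Slc12a1 intron 24), against 1.97% and 10.4% over the genome. Only the Podxl region was separated on both scales. The other 6 were separated on 1 scale each, and of these only Slc12a3 intron 12 had a mean difference of the other sign after division by reads (log2 fold change -0.06, against 0.03 centred on the median).

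**Figure D4:**
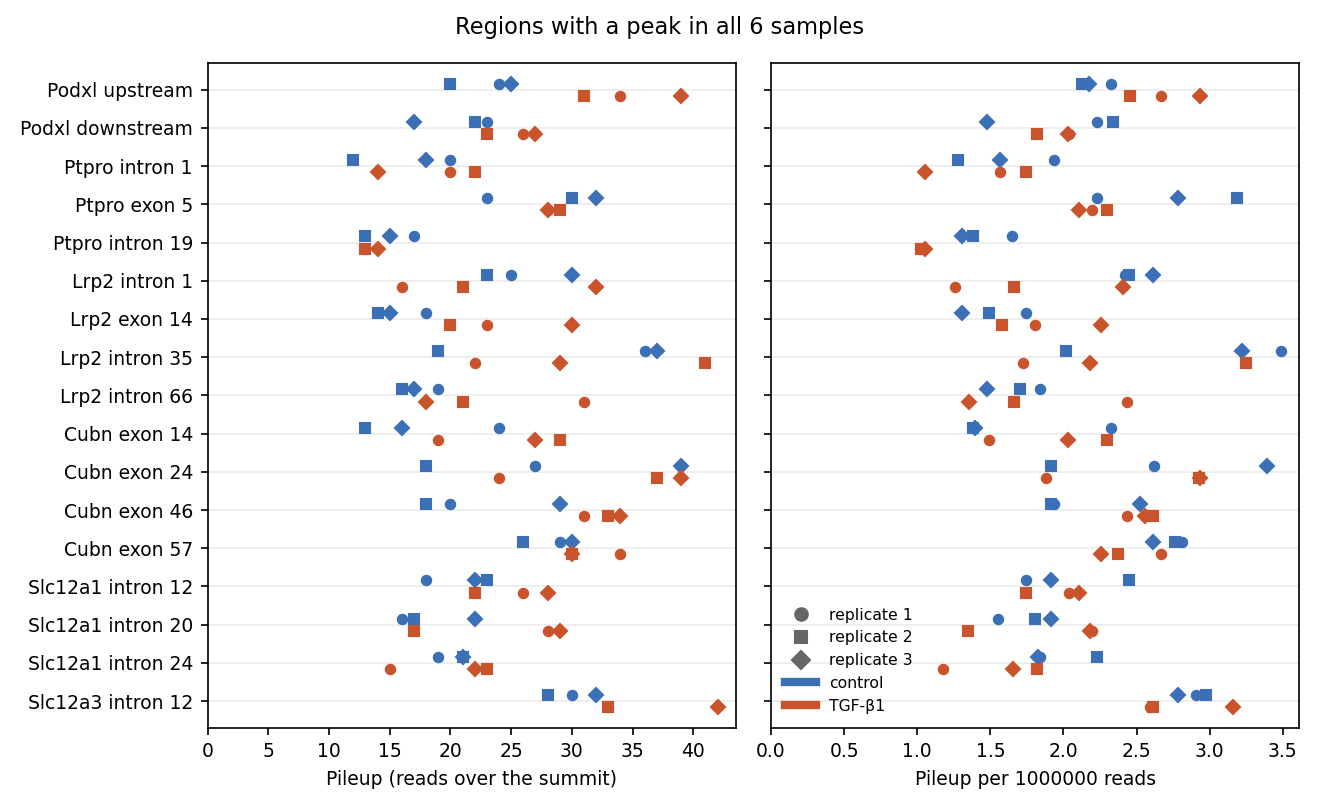
Pileup of the 17 regions found in all 6 samples, in reads (left) and per 1000000 reads of the sample (right), with 1 point per sample (blue, control; orange, TGF-β1; circle, square and diamond for replicates 1, 2 and 3). The upstream region of Podxl is the only one in which the treated samples lie above the control samples in both panels.

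The limma fit on log2 pileup called 0 of the 17 regions at an adjusted p below 0.05 and 0 at an unadjusted p below 0.05. Over all 41744 regions it called 0 at an adjusted p below 0.05 (0%), and at an unadjusted p below 0.05 it called 4.18%, of which 1.96% were higher with TGF-β1 and 2.22% lower. The median log2 fold change of the 17 regions was 0.05, with 10 positive and 7 negative values, and that of all regions was -0.0047. With pileup divided by reads in place of centring, 6 values were positive and 11 negative, with a median of -0.04, and 32% of all regions were positive in place of 49.2%. The estimates ranged from -0.45 at Lrp2 intron 1 to 0.40 at Lrp2 exon 14 (18, 14 and 15 reads in control and 23, 20 and 30 in treated samples). Regions of the same gene thus lay at both ends of the range.

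Other genes of the same cell types were counted in the same way. Of 16 further podocyte genes, 4 had a promoter region in all 6 samples (Plce1, Foxc2, Tcf21 and Myo1e), of 31 further tubule genes 0, and of 16 mesangial genes 2 (Cspg4 and Tbx18), against 4.89% of all protein-coding genes. With the 9 genes added, promoter regions in all 6 samples were present at podocyte genes and at none of the tubule genes examined. This difference was not tested, and the lists are too short to set 0 tubule genes against the share of 4.89%. It holds for the promoter that reaches 2 kb upstream. At Podxl, Foxc2 and Myo1e the summit lay more than 1 kb before the start. At Plce1 and Tcf21 it lay 170 bp and 13 bp after the start. With a promoter of 1 kb either side of the start, Podxl had no such region, and the further genes were not counted in this way. A promoter peak in at least 1 sample was about as frequent at the further podocyte genes (5 of 16) as at the further tubule genes (9 of 31). It was present at 6 of the 16 mesangial genes and at 19.2% of all protein-coding genes. The starts of the further tubule genes were poorer in CpG sites, with a median ratio of observed to expected sites of 0.320 against 0.659 at the further podocyte genes and 0.505 at the mesangial genes. The part of CpG content in these counts was not tested. The promoter region of Plce1, which encodes a phospholipase C of podocytes, had 32, 22 and 24 reads in control and 22, 28 and 34 in treated samples, and that of Cspg4, the NG2 proteoglycan of mural cells, 34, 29 and 33 in control and 36, 38 and 28 in treated samples. Both pairs of groups overlapped. In peak number, every treated sample was above every control sample at 2 of the 16 podocyte genes (Plce1 and Myo1e), 0 of the 31 tubule genes and 1 of the 16 mesangial genes (Cnn1). Cnn1 had 0 peaks in each control and 1 in each treated sample. The reverse was seen at none of the genes of these lists. Over all protein-coding genes with a peak the shares were 3.91% above and 0.345% below, and 7.16% above among genes with a mean of at least 3 peaks. The lists are too short to be told from these shares.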

How the data were processed

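MeDIP-seq peak lists of 3 control and 3 TGF-β1-treated samples were used, grouped by the sample labels. Per the methods and the file headers, the authors removed low-quality reads, mapped the rest to mm9 with BWA, kept unique reads once per start position, and called peaks in each sample with MACS2 (2.1.0.20150731) at a q cutoff of 0.01, with reads extended to 282 to 291 bp without an input library. Pileup as deposited is an unscaled signal value, the reads piled over a summit. Fold enrichment as deposited is the ratio of pileup to local background, and significance was deposited as -log10 p- and q-values. Peak lists omit places under the threshold, and the precision of a call is set by the reads per sample.

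Peaks were joined into regions at an overlap of at least 1 bp, checked against bedtools 2.31.1. Genome and annotation were NCBIM37 (mm9) and GENCODE vM1, and exons and introns were numbered on 1 coding transcript per gene. Shared regions were compared with limma 3.58.1 in R 4.3.3 (lmFit, eBayes with a trend, Benjamini-Hochberg over all regions) on log2 of the highest pileup, centred on each sample's median, because read counts were not used here. Peak numbers were compared by exact two-sided permutation over 20 assignments. Scripts (Python 3.11.15) were tested on simulated data.

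The genes, gene lists and tests were chosen with earlier results of these data known. Regions named were, by rule, all promoter regions, all regions called in 1 group only and in all its samples, per gene the shared region of highest mean pileup, and the shared region of smallest limma p. Other regions named with values (Lrp2 exon 14, the downstream region of Podxl, the intron 28 region of Nphs1, the only region of Slc34a1 and the first region of Slc12a1) were chosen after their values were seen. Alternatives were a -log10 q or fold enrichment of at least 5, equal numbers of peaks, merging up to 200 bp, other windows, scalings and covariates, omission of single samples, and a block for the replicate number. The sequence of 1 Cubn region is not reported here.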

Additional observations from a re-analysis of the deposited data

How the results depend on the processing

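The number of genes with non-overlapping peak numbers, 2, was 1 at a -log10 q of at least 5 and 1 per 1000000 reads (Podxl in both), 0 for peaks enriched at least 5-fold and 0 with equal numbers of peaks. It ranged from 2 to 4 when single samples were left out, which loosens the condition for every gene. The number of regions called in all samples of 1 group and none of the other, 2, was 1 with equal numbers of peaks and 3 for peaks enriched at least 5-fold (2 higher and 1 lower with TGF-β1). It ranged from 2 to 4 without single samples, which loosens this condition too. The shares over all genes and regions given above are for all peaks of all 6 samples. Podxl had no promoter region in all 6 samples at a fold enrichment of at least 5 (0 genes) or in a promoter of 1 kb either side of the start (0 genes). The number of regions found in all samples, 17, ranged from 17 to 26 without single samples. Over the genome it ranged from 43005 to 50093, in place of 41744. At the 9 genes it was 14 for peaks enriched at least 5-fold and 14 with equal numbers of peaks, without a genome number for these settings. The number of shared regions at an unadjusted limma p below 0.05 was 0 of 17, against 1744 of 41744 over the genome. It was 2 with pileup divided by reads (genome 2599), 3 with fold enrichment (1840) and 2 with the GC content of the peaks as a covariate (2830). Without a trend it was 1 (1779), and at a -log10 q of at least 5 it was 1 (1667 of 40134). Among regions of at least 3 samples it was 2 of 43 (3997 of 98681). Without single samples it was 0 to 3, the highest being 3 of 26 without control replicate 1 (3079 of 50093). At an adjusted p below 0.05 the number was 0 in every setting run. Where no cause follows from the setting itself, the cause was not tested.

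The replicate numbers are shared between the groups, but the labels do not say that they pair the samples. The deviations of same-numbered samples from their group means correlated at -0.0464, 0.0432 and -0.130, so the numbers were not taken to pair them, and not every sample correlated best with its own number. With the replicate number as a block, 2 genes still had more peaks in TGF-β1 in all 3 differences, and limma called 0 regions of the 9 genes at an adjusted p and 0 at an unadjusted p below 0.05 (1533 in place of 1744 over the genome).

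Depth limits these results, since weaker methylation gives no peak, and the 3 samples per group allow no exact p below 0.1.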
